A study of Anguilla anguilla with 24 samples.

Results

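The oestrogen receptors, the androgen receptor and aromatase were followed in brain and liver samples from the European eel (Anguilla anguilla). The transcripts were selected by the gene label of each contig, a contig being an assembled transcript sequence, after removal of a leading tag and of a trailing number that counts contigs of one label. The labels ESR2, esr1, ar and CP19A matched 8 of 50640 contigs, namely 5 numbered copies of ESR2 (ESR2.1.5, ESR2.2.5, ESR2.3.5, ESR2.4.5 and ESR2.5.5) and 1 contig each for esr1, ar and CP19A. The 12 eels comprised 6 that received gold nanoparticles through their food for 21 days and 6 controls. Brain and liver were taken from every eel, so 24 libraries formed 4 groups of 6, called here control brain, gold brain, control liver and gold liver. Eels 1 to 6 were controls and eels 7 to 12 were gold-fed. Gold dose, and the strain, sex, age and maturity of the animals, are details the sources used here do not state.

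Oestrogen receptors are ligand-activated transcription factors, encoded by esr1 (receptor alpha) and ESR2 (receptor beta), and ar encodes the androgen receptor that binds testosterone and its derivatives. CP19A is a protein-database name for aromatase, the cytochrome P450 enzyme that converts androgens to oestrogens. In teleost fishes, hepatic oestrogen receptors mediate the induction of egg yolk precursors in maturing females, and the brain is a prominent site of aromatase expression, chiefly in radial glial cells. Teleosts also carry duplicated receptor beta genes. The sources used here do not say whether the 5 ESR2 contigs come from different genes, are splice forms or are fragments of one transcript, and reads from near-identical stretches could be divided among them.

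The libraries held between 50.3 and 116 M counted reads. Levels are given as CPM, counts per M counted reads, after scaling over all 24 libraries by the trimmed mean of M values (TMM), and levels were compared between libraries for the same contig only, because contig lengths are not given. Tissue identity was checked on marker genes. All 25 neuronal marker contigs had the higher mean in control brain, where their summed level was 2390 to 2573 CPM against 28.1 to 37.9 CPM in control liver. In control liver, 40 of 41 hepatocyte marker contigs had the higher mean. The brain of control eel 3 stood apart, with 448 CPM of hepatocyte markers against 54.8 to 131 CPM in the other 11 brains. The gonad list was represented by foxl2 alone of 12 genes. In bulk tissue, fewer cells of a type and less RNA per cell cannot be told apart.

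The ESR2 label, summed over its 5 contigs, was far higher in liver than in brain. In control brain the lowest, median and highest levels were 4.57, 6.48 and 8.74 CPM, and in gold brain they were 6.35, 8.05 and 11.3 CPM. In control liver they were 227, 237 and 286 CPM, and in gold liver 149, 203 and 256 CPM. Every liver lay above every brain, as for 59.2% of all summed labels in control eels and 57.1% in gold-fed eels in one direction or the other, while gold-fed and control eels overlapped within both tissues. The lowest brain value came from eel 6 and the highest from eel 8, and the lowest liver value came from eel 11 and the highest from eel 3.

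In control eels ESR2 was higher in liver by 5.26 on the log2 scale (SE 0.18, adjusted p = 6.17e-12, edgeR quasi-likelihood test). In gold-fed eels it was higher by 4.64 (SE 0.19, adjusted p = 8.39e-11, edgeR). The edgeR tissue tests here and below left the eel out of the model unless a block is named. With the eel as a block the adjusted p for ESR2 was 2.97e-09 in control eels and 1.98e-08 in gold-fed eels (edgeR). Of all summed labels, 75.6% passed an adjusted p of 0.05 in control eels, with 35.2% of all labels higher in liver, and 73.5% and 33.4% in gold-fed eels. Scaling moved the tissue differences. With library totals in place of TMM the median of all contigs moved from -0.11 to -2.26 in control eels and from -0.12 to -2.13 in gold-fed eels. The ESR2 difference was then 3.09 in control eels and 2.61 in gold-fed eels, with the liver still higher.

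**Figure D1:**
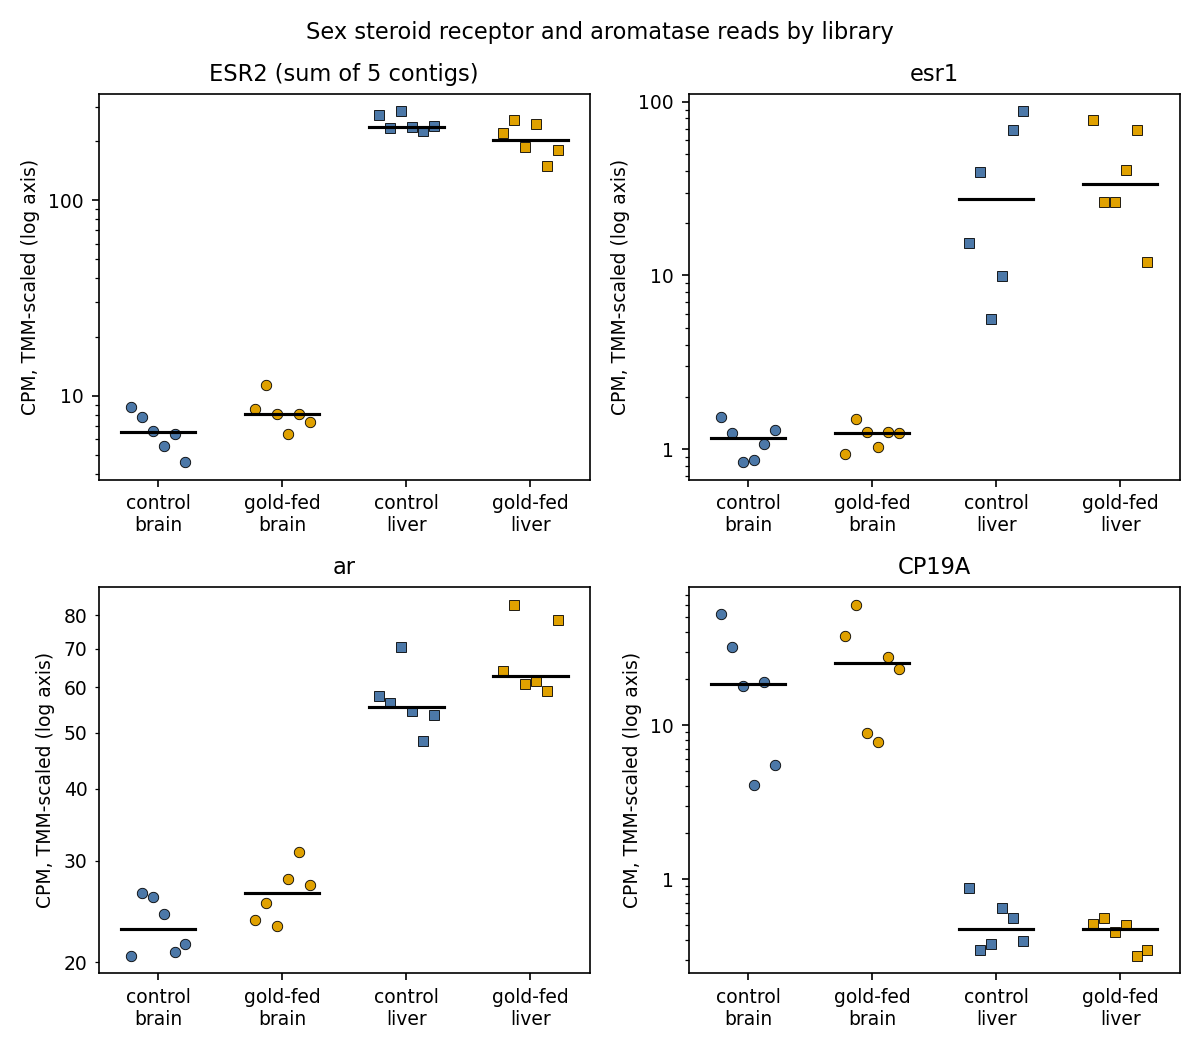
TMM-scaled CPM of the 4 labels in each of the 24 libraries, on log axes, by group; each point is a library and the bar is the group's median. ESR2 and esr1 are higher in every liver than in any brain, CP19A is higher in every brain, and the ar groups separate between tissues in the direction given by TMM scaling, which reverses with library totals.

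The same pattern held for each of the 5 ESR2 contigs. ESR2.4.5 averaged 2.24 ± 0.576 CPM in control brain (SD, n = 6), and its control livers ran from 79.6 to 121 CPM with a mean of 102 CPM. ESR2.1.5 averaged 1.78 ± 0.557 and 74.5 ± 12.1 CPM, and ESR2.2.5 averaged 1.91 ± 0.315 and 49.6 ± 14.2 CPM (SD, n = 6 each). ESR2.5.5 averaged 0.614 ± 0.161 and 18.7 ± 3.69 CPM, and ESR2.3.5, with 4 to 26 reads in any brain library, averaged 0.0574 ± 0.0350 and 4.31 ± 1.83 CPM (SD, n = 6 each). The log2 differences of the 5 contigs ran from 4.70 for ESR2.2.5 to 6.22 for ESR2.3.5 in control eels and from 4.15 for ESR2.2.5 to 5.73 for ESR2.3.5 in gold-fed eels.

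The brain of control eel 3, with its higher hepatocyte markers, had 6.60 CPM of ESR2, near the median of the control brains. Its hepatocyte markers amounted to 0.422% of those in the liver of the same eel, against 0.0602% to 0.172% in the other eels. The same percentage of that eel's liver ESR2 would equal 1.20 CPM, and in the other 11 eels 0.0957 to 0.420 CPM. Its part in the brain levels was not tested.

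esr1, the receptor alpha gene, was also higher in liver, and it varied widely among livers. In control brain its lowest, median and highest levels were 0.845, 1.16 and 1.54 CPM, and in gold brain 0.947, 1.25 and 1.49 CPM. In control liver they were 5.63, 27.4 and 88.2 CPM, and in gold liver 11.9, 33.5 and 78.6 CPM. On this scale all livers lay above all brains, and the gold-fed and control groups overlapped in both tissues. Among control livers, eels 3, 4 and 1 were at 5.63, 9.98 and 15.3 CPM, eel 2 was at 39.6 CPM, and eels 5 and 6 were at 68.5 and 88.2 CPM.

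The liver levels of esr1 had an SD of 1.27 on the log2 scale over the 12 eels, which exceeded that of 96.7% of the 27893 labels averaging at least 1 CPM in liver (median SD 0.41). In brain the esr1 SD was 0.20, larger than in 38.9% of 31099 labels. The liver-to-brain difference was 5.06 in control eels (SE 0.64; adjusted p = 6.11e-06, edgeR) and 5.12 in gold-fed eels (SE 0.44; adjusted p = 1.31e-07, edgeR). With library totals it was 2.82 and 3.09, again higher in liver, but the control groups then overlapped, the lowest liver being at 2.67 CPM and the highest brain at 3.27 CPM.

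The androgen receptor gene ar varied little among the libraries of a group. Its lowest, median and highest levels were 20.5, 22.9 and 26.4 CPM in control brain and 23.1, 26.3 and 31.0 CPM in gold brain. In liver they were 48.3, 55.4 and 70.5 CPM for controls and 59.1, 62.7 and 83.5 CPM for gold-fed eels. The tissues did not overlap on this scale, and the exposure groups did.

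The tissue direction of ar depended on the scaling. It was higher in liver by 1.30 in control eels (SE 0.13; adjusted p = 3.67e-07, edgeR) under TMM, but with library totals the difference was -0.86, lower in liver (adjusted p = 3.51e-05, edgeR). In gold-fed eels the difference was 1.35 (SE 0.14; adjusted p = 6.97e-07, edgeR) under TMM and -0.66 with library totals (adjusted p = 2.61e-04, edgeR). Relative to the median of all contigs, a measure that a change of scaling leaves nearly as it was by construction, ar stood 1.41 higher in control eels and 1.47 higher in gold-fed eels under TMM. Its own mean levels with library totals were 48.7 CPM in control brain, 53.6 CPM in gold brain, 26.9 CPM in control liver and 33.9 CPM in gold liver.

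Aromatase was far higher in brain than in liver, and its level differed greatly from brain to brain. CP19A was lowest at 4.07, median 18.5 and highest at 52.7 CPM in control brain, and 7.72, 25.4 and 60.6 CPM in gold brain. In liver it ran from 0.349 through 0.476 to 0.874 CPM in controls and from 0.318 through 0.477 to 0.562 CPM in gold-fed eels, on 10 to 33 reads per library. Eels 4 and 6 had the lowest control brains and eel 1 the highest, while eels 9 and 10 had the lowest gold brains and eel 8 the highest. No liver reached the lowest brain, and the exposure groups overlapped.

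CP19A was lower in liver by a log2 difference of -5.34 in control eels (SE 0.63; adjusted p = 2.70e-06, edgeR) and -5.95 in gold-fed eels (SE 0.53; adjusted p = 2.16e-07, edgeR). Library totals gave -7.47 and -7.96. The mean liver level was 2.44% of the mean brain level in control eels and 1.62% in gold-fed eels. The same ratio was 1.33% and 1.32% for the summed neuronal markers and 5.90% and 6.15% for the radial glia markers, of which 13 of 15 contigs had the higher mean in control brain and 2 in control liver. The liver level of CP19A thus lay between the ratios of these marker lists in both groups of eels.

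All 8 contigs passed an adjusted p of 0.05 between tissues in both groups of eels, 7 of them higher in liver and 1, CP19A, higher in brain. Among all contigs tested, 75.1% passed in control eels, 34.9% higher in liver and 40.1% higher in brain, and 73% passed in gold-fed eels, 33.3% and 39.7% respectively. With library totals the shares higher in liver and in brain were 10.9% and 78.1% in control eels and 11.4% and 76.6% in gold-fed eels, so a pass alone says little about these genes. The tissues did not overlap for 8 of 8 contigs in either group of eels, against 58.6% and 56.5% of all contigs. With library totals the tissues did not overlap for 7 of 8 contigs in control eels, esr1 being the exception, and for 8 of 8 in gold-fed eels, against 77.7% and 75.5% of all contigs. The median log2 difference of the 8 contigs was 4.99 in control eels and 4.53 in gold-fed eels.

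**Figure D2:**
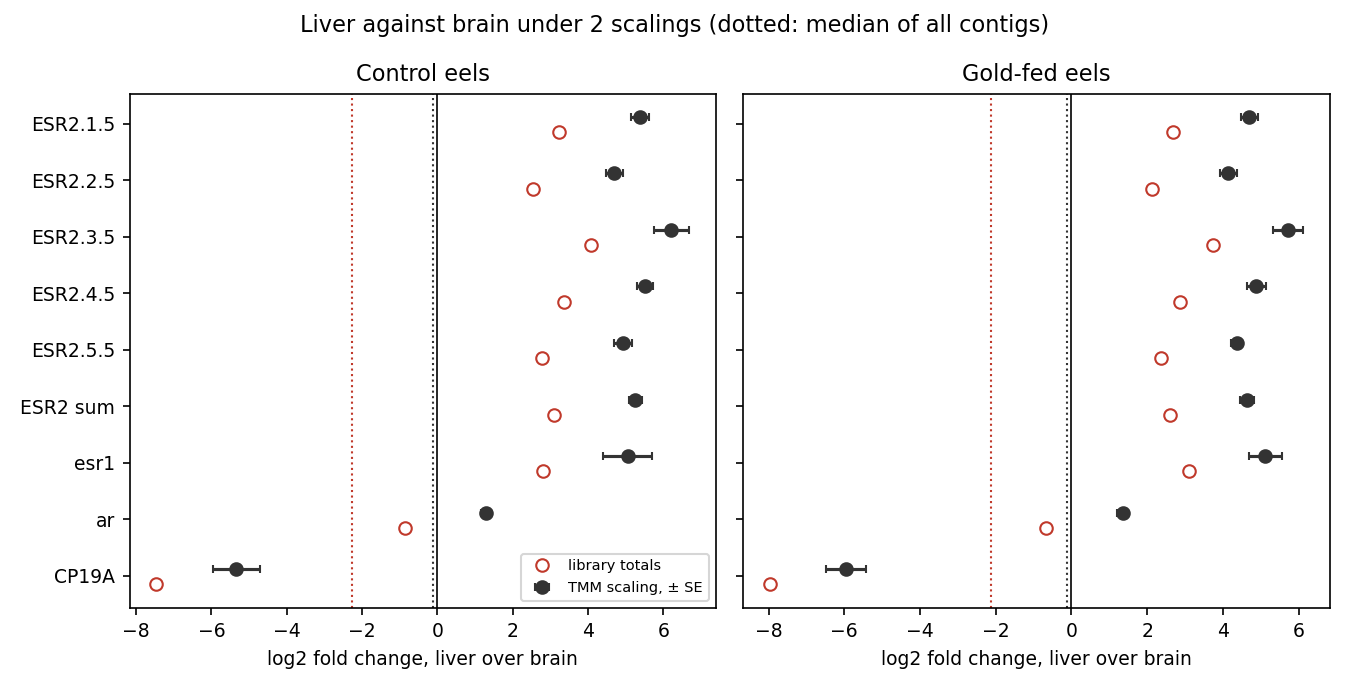
Log2 difference of liver minus brain for the 8 contigs and the ESR2 sum, in control and gold-fed eels, under TMM scaling (filled, with standard errors) and with library totals (open); dotted lines are medians of all contigs. Values above 0 are higher in liver; the sign of ar changes between the scalings (1.30 and -0.86 in control eels), and the other 7 contigs keep theirs.

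The share of ESR2 reads that fell on each contig also differed between tissues. Such shares do not depend on scaling. Within the groups of 6, none of 20 exact permutation tests of a share passed after adjustment (smallest adjusted p = 0.156). Between gold-fed and control eels the exact p was at least 0.424 in all 10 tests. The other tests compared the tissues, where 6 pairs cannot give an exact p below 0.0312. Adjusted together with those gold tests, no tissue test could have passed, so their outcome says nothing about the tissues. The 12 eels were then compared together, in a paired exact test chosen after the values were seen. ESR2.3.5 took 1.81% of ESR2 reads in liver and 0.865% in brain, and was higher in the liver of 12 of 12 eels (exact p = 4.88e-04, the smallest this test can give; adjusted over 5 contigs 0.00244). ESR2.4.5 took 41.1% and 34.1%, higher in liver in 11 of 12 eels (exact test, adjusted p = 0.00366). ESR2.2.5 took 20.5% in liver and 29.1% in brain, lower in liver in 11 of 12 eels (exact test, adjusted p = 0.00488).

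The other two contigs also passed. ESR2.5.5 took 7.33% in liver and 8.92% in brain (lower in 10 of 12 eels; exact test, adjusted p = 0.0134), and ESR2.1.5 took 29.3% and 27.1% (higher in 9 of 12 eels; exact test, adjusted p = 0.0430). ESR2.1.5, ESR2.3.5 and ESR2.4.5 thus had the higher share in liver, and ESR2.2.5 and ESR2.5.5 in brain. The combined share of ESR2.2.5 and ESR2.5.5 ran from 33.8% to 46.4% in control brain, 30.3% to 41.8% in gold brain, 20.5% to 40.8% in control liver and 20.7% to 37.4% in gold liver. The ranges of the tissues overlapped, with the liver of eel 2 at 40.8% the highest liver.

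**Figure D3:**
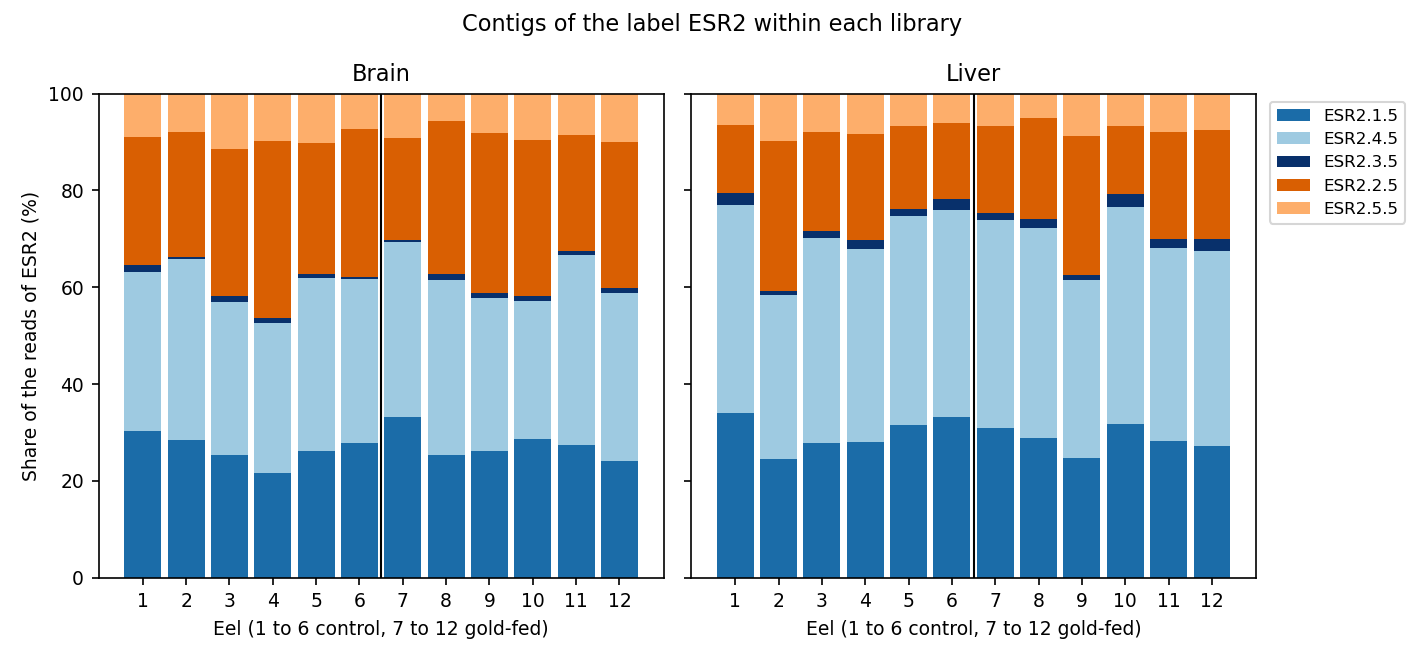
Percent of the ESR2 reads of each library assigned to each of the 5 ESR2 contigs, in the brain and the liver of the 12 eels, as stacked bars. ESR2.2.5 averages 29.1% in brain and 20.5% in liver, and ESR2.4.5 averages 34.1% and 41.1%.

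The question of the study's design is whether the gold diet changed expression in either tissue. In brain, none of the 8 contigs passed an adjusted p of 0.05 by edgeR or by DESeq2, which gave no adjusted p for ESR2.3.5, and none had an unadjusted p under 0.05 in edgeR. Among all contigs, 0.00201% passed the adjusted test in edgeR and 0.357% in DESeq2, and 7.75% had an unadjusted p under 0.05 in edgeR. The groups overlapped for all 8 contigs, against 0.508% of contigs that did not overlap. All 8 fitted differences were above 0, with a median of 0.31 against 0.00 for all contigs; the ESR2 contigs share one label, so they are not independent.

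In the gold brains ESR2 differed from controls by 0.31 (SE 0.17; adjusted p = 0.683, edgeR), ar by 0.17 (SE 0.09; adjusted p = 0.688, edgeR) and esr1 by 0.06 (SE 0.18; adjusted p = 0.951, edgeR). CP19A differed by 0.32 (SE 0.63; adjusted p = 0.921, edgeR). The mean CP19A level was 21.9 ± 18.2 CPM in control brain and 27.6 ± 19.8 CPM in gold brain (SD, n = 6 each). The difference in CP19A was smaller than the spread among the brains of either group.

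In liver, again none of the 8 contigs passed the adjusted test in edgeR or DESeq2. One, ESR2.5.5, had an unadjusted p under 0.05 in edgeR (log2 difference -0.37, SE 0.17; adjusted p = 0.580). Of all contigs, 0% passed in edgeR and 0.692% in DESeq2, and 8.4% had an unadjusted p under 0.05. No member separated the groups, against 0.486% of contigs. Of the 8, 2 were higher and 6 lower in gold liver, with a median of -0.22 against 0.02 for all contigs.

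The 5 ESR2 contigs all had a fitted difference below 0 in gold liver, from -0.11 for ESR2.3.5 to -0.37 for ESR2.5.5, and the sum differed by -0.26 (SE 0.16; adjusted p = 0.682, edgeR). ar differed by 0.27 (SE 0.15; adjusted p = 0.662, edgeR), esr1 by 0.18 (SE 0.63; adjusted p = 0.963, edgeR) and CP19A by -0.24 (SE 0.30; adjusted p = 0.864, edgeR). Mean ESR2 was 249 ± 23.7 CPM in control liver and 206 ± 41.0 CPM in gold liver (SD, n = 6 each).

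**Figure D4:**
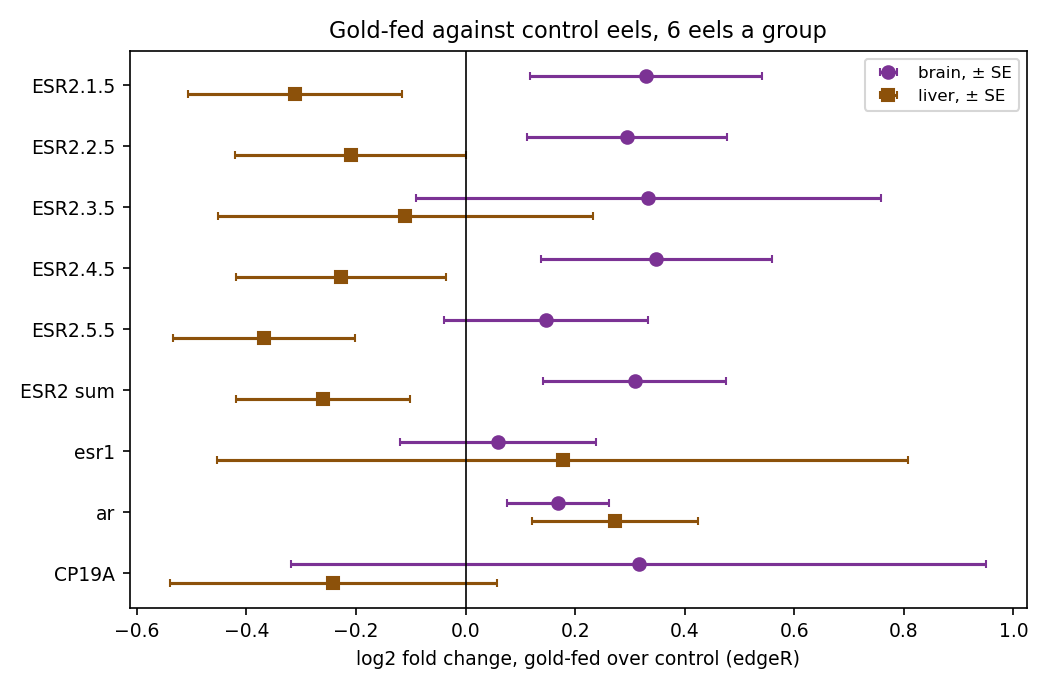
Log2 difference of gold-fed minus control eels for the 8 contigs and the ESR2 sum, with standard errors, in brain and in liver. None of the differences passes an adjusted p of 0.05; the ESR2 sum is at 0.31 in brain and -0.26 in liver.

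Whether the gold response differed between the tissues was tested as an interaction over all 24 libraries. None of the 8 contigs passed the adjusted test by edgeR or DESeq2, and 3 of 8, all of them ESR2 contigs, had an unadjusted p under 0.05 in edgeR. Across all contigs 0.00595% passed in edgeR and 0.27% in DESeq2, and 6.78% had an unadjusted p under 0.05 in edgeR. Of summed labels, 0% passed for gold in brain and 0% in liver, and 0.00714% in the interaction, where 7.22% had an unadjusted p under 0.05. For the ESR2 sum the liver response minus the brain response was -0.60 (SE 0.22; unadjusted p = 0.0130, adjusted p = 0.521, edgeR). With the eel as a block it was -0.63 (unadjusted p = 0.00807, adjusted p = 0.504, edgeR). With library totals it was -0.48 (unadjusted p = 0.0497, adjusted p = 0.702, edgeR). ar differed by 0.07, esr1 by 0.08 and CP19A by -0.60, none past the threshold.

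Across brains, ESR2 and CP19A went together. Over 16 relations computed among the labels, each over 12 eels with exposure means removed, this was the only one to pass after adjustment. Those relations set the member labels only against each other. How many of all brain labels followed CP19A as closely was not counted, so the relation is not shown to be particular to ESR2. For ESR2 and CP19A, Pearson's r was 0.88 (permutation p = 1.4e-04, adjusted p = 0.00224) and Spearman's rho 0.94 (permutation adjusted p = 6.4e-04). Leaving out the brains of eels 6 and 8, the farthest from the median of ESR2, gave r = 0.85, and leaving out any single eel gave 0.84 to 0.93. Within the 6 control eels r was 0.93 (exact permutation p = 0.0111), and within the 6 gold-fed eels it was 0.81 (exact permutation p = 0.0361). These values use the same eels again, so they are not separate evidence. Pairs that did not pass over the 12 eels reached similar values within 6. ESR2 and CP19A in gold liver had r = 0.93 (exact permutation p = 0.00556), and ESR2 and ar in control liver 0.89 (exact permutation p = 0.0167).

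**Figure D5:**
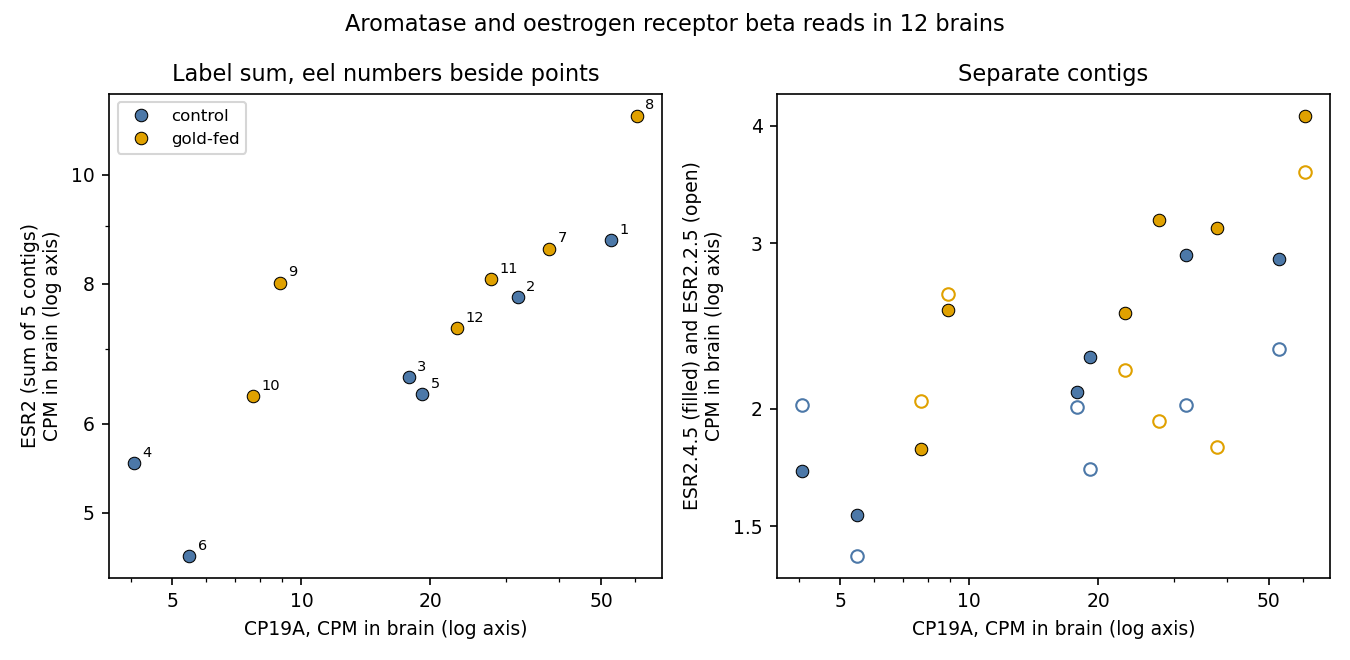
ESR2 summed (left) and the contigs ESR2.4.5 and ESR2.2.5 (right, filled and open) against CP19A in the 12 brains, TMM-scaled CPM on log axes, control and gold-fed eels in different colours. Brains with more CP19A tend to have more summed ESR2, with exceptions such as eel 9, at 8.89 and 8.02 CPM. The brain of eel 8 is highest on both, at 60.6 and 11.3 CPM. For ESR2.2.5 the relation to CP19A did not pass (r = 0.40).

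The ESR2 contigs were related to CP19A one by one in a family of 30 relations added after the values were seen. ESR2.4.5 and ESR2.1.5 had an r of 0.92 and 0.89 with CP19A in brain (permutation test, adjusted p = 6e-04 and 0.00135). ESR2.2.5 and ESR2.3.5 had an r of 0.40 each (permutation test, adjusted p = 0.314 and 0.321), and ESR2.5.5 of 0.65 (permutation test, adjusted p = 0.0594). The difference between these correlations was not tested. Brain levels of ESR2.3.5 were 0.0226 to 0.119 CPM, below the 0.5 CPM added before taking logs. Its r values in brain are therefore imprecise, and a low r does not show that this contig behaved differently. In liver ESR2.1.5 and ESR2.4.5 had an r of 0.97 with each other (permutation test, adjusted p = 6e-04). ESR2.1.5 and ESR2.2.5 had an r of -0.27 in liver and 0.44 in brain (permutation test, adjusted p = 0.463 and 0.279). Other contig pairs also passed by r (permutation test). In brain these were ESR2.1.5 with ESR2.4.5 (0.88, adjusted p = 0.00135) and ESR2.2.5 with ESR2.3.5 (0.75, adjusted p = 0.0353). In liver it was ESR2.1.5 with ESR2.3.5 (0.74, adjusted p = 0.0353). The pairs with ESR2.3.5 did not pass by rho (permutation adjusted p = 0.0817 for both).

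Other relations among the labels did not pass. In liver esr1 and ar had an r of -0.69 (permutation p = 0.0162, adjusted p = 0.130) and a rho of -0.73 (permutation adjusted p = 0.0802), which without eels 3 and 6 became r = -0.61. No label passed when its brain and liver levels were set against each other, with r from 0.18 for CP19A to 0.27 for ESR2.

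Values from a list of brain genes, drawn up with the hypothalamus in mind, are set beside those of CP19A and ESR2. The list was chosen after the values were seen, and no test was made. Whether the listed genes are particular to the hypothalamus was not tested. Of the 32 genes listed 19 were matched, by 26 contigs, and 25 of these had the higher mean in control brain. Their summed level was 123 to 203 CPM in control brain and 155 to 285 CPM in gold brain. The brain of eel 8, highest for CP19A and ESR2, was highest for 13 of the 26 contigs. The brain of eel 6, among the lowest for both, was lowest for 15. No share over all contigs was taken beside these counts, so they say little about the listed genes. The list also holds crhbp and pdyn, 2 of the 3 labels with profiles most similar to CP19A, so it is not independent of CP19A. The brain of eel 4, the lowest for CP19A, was lowest for 4 of the 26, and its summed level of 175 CPM lay above those of control eels 3, 5 and 6. Such a sum gives most weight to abundant contigs. In eel 4 it held 53.9 CPM of TRH and 26.3 CPM of dlx5, whose highest brain values were 54.8 and 30.9 CPM. The sum therefore does not show where eel 4 stood for most of the listed contigs. Taken contig by contig, eel 4 lay above the median of all brains only for TRH, dlx5, gnrh1, NPY and both tac1 contigs. It was below the median for every other matched contig. With eel 6 set aside, eel 4 was the lowest brain for lhx6, lhx8, and both contigs each of isl1, hmx3 and cck. These standings were not compared with those over all contigs either. The summed radial glia markers ran from 1133 to 1585 CPM in control brain and from 1008 to 1578 CPM in gold brain. Eels 4 and 6, with the lowest CP19A among control brains, had the highest radial glia sums among them, at 1585 and 1546 CPM. Eels 1 and 8, with the highest CP19A of each group, were at 1154 and 1117 CPM. Among gold brains, however, eel 10 had both the lowest CP19A, at 7.72 CPM, and the lowest radial glia sum, at 1008 CPM. Eel 7, with 37.8 CPM of CP19A, had the highest radial glia sum of that group at 1578 CPM. The part of the listed genes and of the radial glia markers in the relation of ESR2 and CP19A was not tested.

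The spread of CP19A among brains, an SD of 1.23 on the log2 scale, was larger than that of 99.1% of the 31099 labels averaging at least 1 CPM in brain, whose median SD was 0.23. For ESR2 in brain the SD was 0.32, larger than in 67.4% of labels, and for ar it was 0.18, larger than in 32.8%. In liver, ESR2 and ar had an SD of 0.27 and 0.23, larger than in 17.1% and 9.19% of 27893 labels.

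Profiles over the 24 libraries include the difference between tissues, so labels with similar profiles need not vary together among eels within a tissue. The labels with the most similar profiles were found by the root mean square difference of centred log2 levels, among 9999 gene-named labels. For ESR2 these were sod1, the copper-zinc superoxide dismutase gene, at 0.28, foxa1, a pioneer transcription factor gene, at 0.30, and ctsl, a lysosomal protease gene, at 0.31, against a median of 2.48. For CP19A they were crhbp, encoding the binding protein of corticotropin-releasing hormone, at 0.63, syt17 at 0.68 and pdyn, which encodes an opioid precursor, at 0.71, against a median of 2.31. For ar they were cul4b at 0.16, taz at 0.18 and SNX17 at 0.19, against 0.91, and for esr1 idh1 at 0.64, ccdc69 at 0.69 and suox at 0.69, against 2.30.

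Other genes of the sex steroid pathway were read from a list of 90 genes, of which 48 were matched, by 88 contigs. Between tissues in control eels, 38 contigs were higher in liver and 26 higher in brain, but with library totals 12 and 65. Over all contigs the shares passing as higher in liver and in brain were 34.9% and 40.1% under TMM and 10.9% and 78.1% with library totals. The direction of these counts thus depended on the scaling. In synthesis and metabolism, 11 of 17 contigs passed as higher in liver and 3 as higher in brain, but 6 and 7 with library totals. akr1d1, the steroid reductase of bile acid synthesis, was higher in liver by 6.74 and hsd3b7.2.2 by 4.96. The steroid reductase gene srd5a1 was lower in liver by a log2 difference of -3.27 and s5a2 by -2.30 (edgeR, adjusted p = 2.71e-05 and 7.60e-07). Among 17 receptor contigs 9 passed as higher in liver and 4 as higher in brain, but 5 and 12 with library totals. nr0b2 at 6.76 and nr5a2.4.4 at 6.21 led toward liver, and esrrb.1.2 at -5.18 and esrrb.2.2 at -4.96 toward brain.

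Of 46 coregulator contigs 17 passed as higher in liver and 12 as higher in brain, but 1 and 39 with library totals. foxa1 differed by 5.61 and HS90B, a chaperone of steroid receptors, by 2.41, although by 0.23 (adjusted p = 0.108, edgeR) with library totals. stip1.2.2 and HS90A were lower in liver at -4.36 and -2.81. All 7 contigs of the reproductive axis were higher in brain under both scalings, including gnrh1 at -5.36 and tac3.2.2, a tachykinin gene, at -5.49. The only target gene matched was fkbp5, a steroid-responsive co-chaperone gene. In control eels it was higher in liver by 2.56 under TMM but by 0.37 (adjusted p = 0.556, edgeR) with library totals. Its difference in gold-fed eels was 0.90 (adjusted p = 0.170, edgeR) under TMM and -1.11 (adjusted p = 0.0767, edgeR) with library totals. In gold-fed eels, 33.3% and 39.7% of all contigs passed as higher in liver and in brain under TMM. With library totals these shares were 11.4% and 76.6%. Of the pathway contigs in those eels, 40 and 26 passed under TMM, and 13 and 64 with library totals. There nr5a2.3.4 (6.68) and ncoa2.1.3 (2.41; 0.41 with library totals) joined the largest differences toward liver, and TY3H (-6.01), the tyrosine hydroxylase of dopamine synthesis, and GON2 (-5.23) those toward brain.

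None of the pathway contigs passed between gold-fed and control eels. In brain 0 of 88 passed in edgeR and 0 in DESeq2, with 5 and 7 at an unadjusted p under 0.05, where all contigs gave 7.75% and 9.6%; 43 were higher and 45 lower, with a median of -0.02 against 0.00 for all contigs. In liver 0 of 79 passed in edgeR and 0 in DESeq2. An unadjusted p under 0.05 was found for 8 in edgeR and 9 in DESeq2, where all contigs gave 8.4% and 9.57%. Of the 79, 46 were higher and 33 lower, with a median of 0.07 against 0.02. By role, receptor contigs were 13 higher and 1 lower in liver, but 4 higher and 13 lower in brain. Synthesis contigs were 4 higher and 13 lower in liver, and 12 higher and 5 lower in brain. Coregulators were 28 higher and 18 lower in liver, and 21 and 25 in brain. The 17 receptor contigs come from 8 genes, so they are not independent. The interaction gave 0 of 88 in edgeR and 0 in DESeq2, with 5 and 6 at an unadjusted p under 0.05, where all contigs gave 6.78% and 8.42%; hsd17b3 (-3.04) and esrra.1.2 (0.59) were among those of smallest p.

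The largest fitted difference in brain among contigs named by their p was that of fkbp5, with a mean of 9.90 CPM in control brain and 26.2 CPM in gold brain (n = 6 each; log2 difference 1.39, SE 0.59; adjusted p = 0.636, edgeR). In brain sts.2.2, a steroid sulphatase, differed by 0.38 and srd5a1 by -0.35, esrrg by -0.50 and ddx17.1.3 by -0.44. In liver hsd17b3, a testosterone-forming dehydrogenase in mammals, averaged 3.96 ± 6.18 CPM among controls and 0.520 ± 0.303 CPM after the gold diet (SD, n = 6 each; log2 difference -2.89, SE 1.03; adjusted p = 0.490, edgeR). GCR.1.2, a glucocorticoid receptor contig, differed by 0.64, esrra.1.2 by 0.47, ncoa1.1.2 by 1.04 and drd2.1.2 by 0.97, and none of them passed.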

How the data were processed

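The authors deposited a table of raw counts, whole-number read counts per contig and library; BWA 0.7.12 and SAMtools 1.1 are named in the submitters' processing notes, and the assembly and annotation behind the contigs were not given in the sources used here. Per the labels' protocols, total RNA was made into TruSeq libraries. Counts were also summed by label. Contigs were filtered with filterByExpr, scaled by TMM, and tested with the quasi-likelihood F test of edgeR 4.0.16 (R 4.3.3) with Benjamini-Hochberg adjustment over all contigs or labels tested; DESeq2 1.42.0 was an alternative, as were library totals, other filters, the eel as a block and leaving out each eel. Displayed CPM used 1 TMM scaling over 24 libraries. Relations used log2(CPM + 0.5), centred on exposure means, with 100000 permutations. Permutation and exact tests used SciPy 1.17.1. Fits were checked on simulated counts.

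The labels name the eel of each library. Brain and liver of one eel deviated together, with correlations of 0.299 to 0.505 (n = 12), against -0.225 to 0.0104 for other pairs (n = 60), so the eel number pairs the libraries. Members, gene lists and tests were chosen with earlier results of these data known. Named genes were every member contig, the 3 nearest gene-named labels to each label, and per pathway role the 2 contigs of smallest p in each gold comparison and the 2 largest passing tissue differences in each direction. Relations with vitellogenin were not analysed here.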

Additional observations from a re-analysis of the deposited data

How the results depend on the processing

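The counts of member contigs and labels passing the threshold kept their values under every alternative run except 1 (library totals, other filters, DESeq2, leaving out each eel and, where both tissues entered, the eel as a replicate block): 8 of 8 contigs between tissues, and 0 for gold. The exception was a filter of at least 1 CPM in 6 libraries, which removed ESR2.3.5 and gave 7 contigs between tissues. With the replicate block, ESR2 summed was 5.28 higher in liver in control eels and 4.63 in gold-fed eels. For esr1 the block gave 4.46 and 4.86, against 5.06 and 5.12 without it. For CP19A it gave -4.93 and -5.70, against -5.34 and -5.95, and for ar 1.30 and 1.34. In the interaction the block moved esr1 from 0.08 to 0.43 and CP19A from -0.60 to -0.76. Some directions reversed. With library totals ar was at -0.86 between tissues in control eels and -0.66 in gold-fed eels. Without removal of group means, r became 0.19 for ESR2 and ar in brain, 0.070 for ar and CP19A in brain, and -0.10 for ESR2 between brain and liver. Leaving out 1 eel moved the gold difference of esr1 from -0.015 to 0.17 in brain and from -0.11 to 0.62 in liver. That of CP19A in brain ran from -0.082 without gold brain 8 to 0.80 without control brain 1, and that of ESR2.3.5 in liver from -0.34 to 0.10. The interaction ran from -0.25 to 0.49 for esr1 and from -0.0070 to 0.16 for ar, and that of CP19A from -0.89 to -0.28. The gold difference of CP19A in liver ran from -0.34 to -0.051. The cause was not tested. The 10 to 33 CP19A reads per liver and 4 to 26 ESR2.3.5 reads per brain limit their precision.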
